A study of Mus musculus with 11 samples.

Results

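The Ms4a genes encode small proteins of the cell membrane that cross it several times and act beside immune receptors. The 8 members described here were chosen by name, and all 8 are in both deposited tables, which hold 35118 genes (tumor macrophages of both genotypes) and 35597 genes (control tumor and splenic macrophages). They are Ms4a1, Ms4a4a, Ms4a4b, Ms4a4c, Ms4a6b, Ms4a6c, Ms4a6d and Ms4a7.

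Members of this family differ in the leukocytes that carry them. Ms4a1 is CD20, a marker of the B cell surface. Ms4a4b and Ms4a6b are known from T cells, where their products associate with the receptor GITR (Tnfrsf18). Ms4a4a is a macrophage protein that associates with the beta-glucan receptor dectin-1 (Clec7a), human MS4A4A is linked to the amount of soluble TREM2, and the product of Ms4a6d was described as a partner of the complement receptor Vsig4 on macrophages.

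RNA was sequenced from C57BL/6 mice aged 6 to 8 weeks when Lewis lung carcinoma (LLC) cells, a mouse lung tumor line, were placed under the skin; tissue was taken after 14 days. The group WT_TAM holds 4 libraries of tumor-associated macrophages from Sin1fl/fl mice, the group KO_TAM 4 from LysMCre;Sin1fl/fl mice, and the group WT_SP 3 of splenic macrophages from tumor-bearing Sin1fl/fl mice. Every animal therefore carried floxed Sin1 alleles and a tumor, and KO_TAM also carried the Cre gene, which LysM-Cre mice express in myeloid cells generally. Tumor cells were sorted as CD45+, negative for Ly6G and Ly6C, and positive for CD11b and F4/80; spleen cells were negative for TCRβ as well and low for CD11b. The labels do not say that a library is 1 mouse, so the spread between libraries may be technical.

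Libraries held 7635600 to 13116848 recovered reads, fewest in WT_TAM replicate 4, and 3 reads in a library correspond to 0.211 to 0.492 CPM. CPM are read counts scaled to one common library size, relative to a library's total times its size factor, and they are compared only within a table. Mapkap1, the gene of Sin1, stood at 30.7 to 71.1 CPM in WT_TAM and at 43.3 to 54.1 CPM in the libraries labelled KO_TAM (limma log2 fold change -0.22 ± 0.26 SE, adjusted p = 0.658); a whole-gene value does not separate a floxed exon, so it does not check the genotype labels. Among defining macrophage markers, Csf1r averaged 1781 ± 503 CPM (SD, n = 4) in WT_TAM and 1070 ± 152 CPM (SD, n = 3) in WT_SP. In WT_SP, however, 16 B cell markers summed to 15846 to 17393 CPM, above the 4217 to 5039 CPM of 12 macrophage identity markers, and 16 T and NK cell markers summed to 2338 to 2518 CPM although the sort excluded TCRβ+ cells. Red pulp macrophage markers such as Spic and Vcam1 were present there, with a sum of 4168 to 4632 CPM for 10 genes. The splenic libraries are therefore called by their label, with marker sums beside the members' results.

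The members lie on mouse chromosome 19 (GRCm38, GENCODE M21) within 355 kb, from base 11249675 to base 11604849. Ms4a1 (11249675 to 11266241), Ms4a7 (11321039 to 11336146) and Ms4a6d (11586604 to 11604849) are on the minus strand. Ms4a4a (11375523 to 11392790), Ms4a4c (11404770 to 11427246), Ms4a4b (11443553 to 11467055), Ms4a6c (11469366 to 11482192) and Ms4a6b (11516512 to 11531256) are on the plus strand. Some neighbours share stretches of sequence. Of the distinct 50-base stretches of Ms4a4c transcripts, 8.19% were shared with another family transcript, mostly Ms4a4b. For Ms4a6c the share was 5.85%, all with Ms4a6b. The share was 3.44% for Ms4a6b, 2.31% for Ms4a6d, 2.24% for Ms4a4b and 0% for Ms4a1, Ms4a4a and Ms4a7. No source used here gives how reads that match more than 1 gene were counted, so the split of reads within these pairs is uncertain.

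RefSeq (GRCm38.p6) gave promoters for 6 of the 8 members. Those of 2 paralog pairs are shown because the genes of 1 pair moved the same way between spleen and tumor and those of the other moved in opposite ways (below). Each line gives 250 bases before the start site that RefSeq uses, plus strand, 5′ to 3′, and capitals mark the longest run of bases that the pair shares. The coordinates are chr19:11443308-11443557 for Ms4a4b, chr19:11407411-11407660 for Ms4a4c, chr19:11518309-11518558 for Ms4a6b and chr19:11469118-11469367 for Ms4a6c. The RefSeq start sites of Ms4a4c and Ms4a6b differ from the GENCODE gene starts above, so these windows lie within the GENCODE spans of the 2 genes.
Ms4a4b: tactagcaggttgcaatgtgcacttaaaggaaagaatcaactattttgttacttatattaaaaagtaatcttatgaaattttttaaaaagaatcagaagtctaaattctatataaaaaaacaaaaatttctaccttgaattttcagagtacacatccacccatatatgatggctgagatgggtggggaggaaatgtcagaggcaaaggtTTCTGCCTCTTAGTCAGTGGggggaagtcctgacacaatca
Ms4a4c: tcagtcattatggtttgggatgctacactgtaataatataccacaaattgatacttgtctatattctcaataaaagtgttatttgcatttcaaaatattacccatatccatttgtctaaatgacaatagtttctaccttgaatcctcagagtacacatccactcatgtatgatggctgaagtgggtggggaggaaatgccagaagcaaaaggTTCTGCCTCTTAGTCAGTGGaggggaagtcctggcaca
Ms4a6b: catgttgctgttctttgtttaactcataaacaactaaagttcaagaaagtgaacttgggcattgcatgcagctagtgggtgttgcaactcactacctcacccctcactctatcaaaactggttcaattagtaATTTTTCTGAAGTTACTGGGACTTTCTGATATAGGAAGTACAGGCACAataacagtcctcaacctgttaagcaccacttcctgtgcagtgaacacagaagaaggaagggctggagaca
Ms4a6c: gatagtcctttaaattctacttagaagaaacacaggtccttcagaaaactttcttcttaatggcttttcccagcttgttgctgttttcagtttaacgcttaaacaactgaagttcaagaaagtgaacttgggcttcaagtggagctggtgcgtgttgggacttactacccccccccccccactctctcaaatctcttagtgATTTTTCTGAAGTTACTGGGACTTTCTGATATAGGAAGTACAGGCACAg
The run shared by Ms4a4b and Ms4a4c had 20 bases, and 83.3% of 227 aligned bases were identical. Ms4a6b and Ms4a6c shared a run of 48 bases, with 88.4% of 173 aligned bases identical. Across the other 8 pairs of plus-strand members with a promoter, the longest shared run was 7 to 9 bases. In those pairs 61.8% to 76.9% of the aligned bases were identical. In the whole RefSeq window of 300 bases (250 before the start and 50 from it on), both strands were searched for 3 motifs. GAGGAA, the core bound by the myeloid and B cell factor PU.1, was found in Ms4a4b, Ms4a4c and 1 of the 2 promoters of Ms4a7, and in 28.3% of 32817 promoters of the same length. For AP-1 the pattern TGANTCA was searched, which leaves the middle base free and is looser than the AP-1 site itself. It was found as TGAATCA in Ms4a4b and as TGATTCA in the other Ms4a7 promoter, and in 7.81% of all promoters. The interferon response element, searched as GAAA repeated after 2 free bases, was found in no member's promoter and in 3.43% of all. No motif searched was found in Ms4a6b, Ms4a6c or Ms4a4a.

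All 8 members differed between control tumor and splenic macrophages, and the family split evenly by direction. Ms4a6d, Ms4a7, Ms4a4a and Ms4a6c were higher in WT_TAM, by 36.2-, 15.5-, 13.1- and 5.14-fold in mean CPM. Ms4a1, Ms4a4b, Ms4a4c and Ms4a6b were lower in WT_TAM, so that the WT_SP means were 242-, 13.4-, 2.85- and 1.62-fold higher. The groups did not overlap for any member. Tests were made with limma on log2(CPM + 0.5), adjusted over all 14238 genes tested. At the same threshold 46.7% of the genes tested were called, 23.1% higher and 23.6% lower, and the groups did not overlap for 56.1% (26.3% higher, 29.8% lower). An unadjusted p below 0.05 was reached by 53.9% of genes, so a call was common in this comparison. The members' median log2 fold change was 0.79, against -0.07 over all genes tested.

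**Figure D1:**
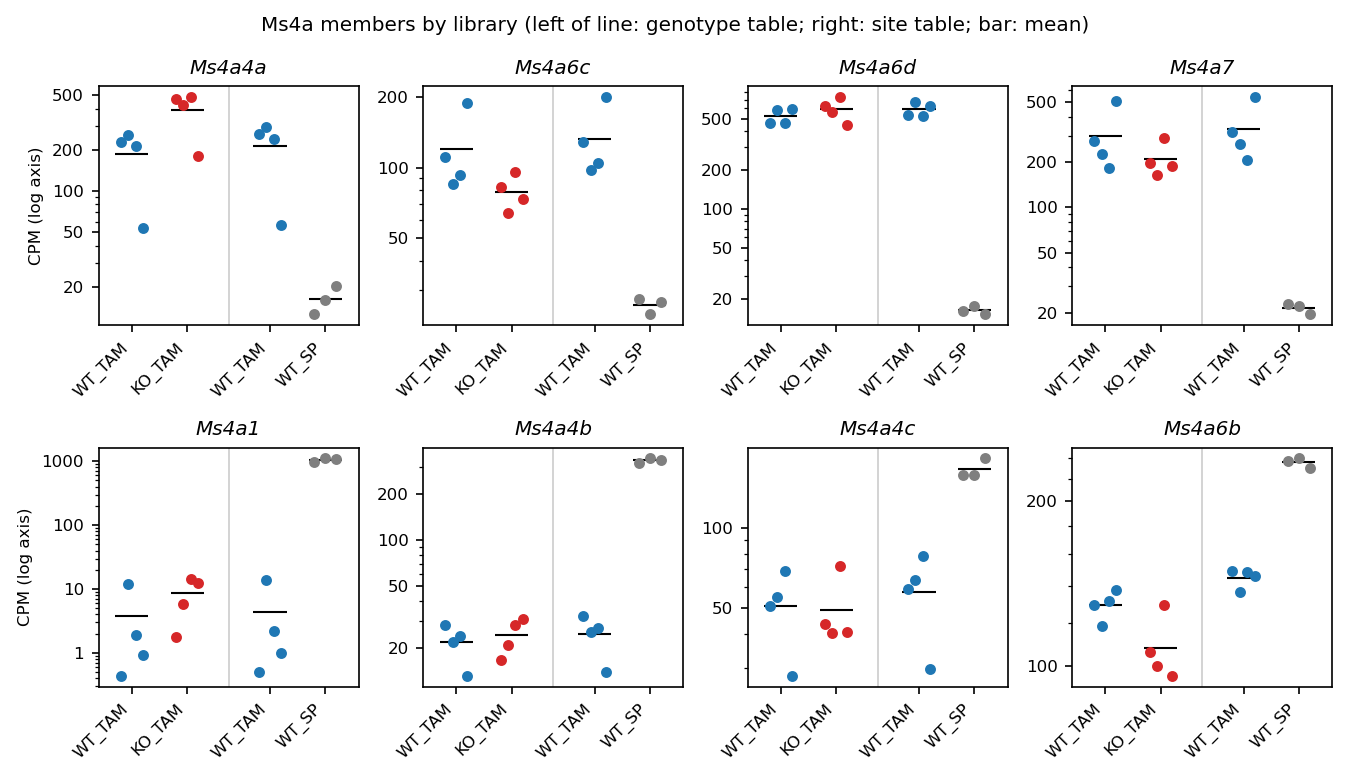
CPM of each Ms4a member in every library, on log axes that differ between panels; points are libraries and bars are means. Left of the line are WT_TAM and KO_TAM from 1 table, right of it WT_TAM and WT_SP from the other. WT_TAM and WT_SP are apart for all 8 genes, and WT_TAM and KO_TAM overlap for all 8.

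Among the macrophage-expressed members, Ms4a6d stood at 535, 668, 523 and 629 CPM in WT_TAM replicates 1 to 4 and at 16, 17.7 and 15.2 CPM in WT_SP. Every tumor library was far above every splenic one, and the libraries within each group were close together. Macrophage identity markers were also higher in WT_TAM (9 of 12 called, none lower), with a sum of 16518 to 30837 CPM against 4217 to 5039 CPM in WT_SP; their part in the results of Ms4a6d, Ms4a7, Ms4a4a and Ms4a6c was not tested, and in bulk libraries fewer cells of a type and less RNA per cell cannot be told apart. The limma log2 fold change was 5.13 ± 0.17 (SE; adjusted p = 3.46e-07), which placed Ms4a6d at rank 14 of all genes by p. Vsig4, described as a partner of its product, had 0.098 to 0.962 CPM in WT_TAM and 0.987 to 1.98 CPM in WT_SP and was lower in WT_TAM (-0.99 ± 0.35 SE, adjusted p = 0.0453), at 1 to 27 reads a library.

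Ms4a7 stood at 318, 263, 207 and 543 CPM in WT_TAM and at 22.8, 22.2 and 19.5 CPM in WT_SP. Its tumor libraries spread more than those of Ms4a6d, with replicate 4 highest. The log2 fold change was 3.83 ± 0.31 (SE; limma adjusted p = 1.85e-05). Ms4a6c was likewise highest in replicate 4, at 129, 97.9, 105 and 201 CPM in WT_TAM against 27.3, 23.6 and 26.7 CPM in WT_SP. The log2 fold change of Ms4a6c was 2.28 ± 0.26 (SE; limma adjusted p = 0.000141).

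Ms4a4a stood at 262, 296, 241 and 56.6 CPM in WT_TAM and at 12.6, 15.98 and 20.2 CPM in WT_SP. Here WT_TAM replicate 4, the highest library for Ms4a7 and Ms4a6c, was the lowest, though still above the spleen. The log2 fold change of Ms4a4a was 3.46 ± 0.54 (SE; limma adjusted p = 0.000897), and 4.01 without WT_TAM replicate 4. The dectin-1 gene Clec7a stood at 884 to 1462 CPM in WT_TAM and at 30.7 to 33.0 CPM in WT_SP (5.17 ± 0.21 SE, limma adjusted p = 6.98e-07).

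Ms4a1 stood at 975, 1105 and 1096 CPM in WT_SP and at 0.507, 13.8, 2.19 and 0.984 CPM in WT_TAM, where replicate 2 was highest and replicates 1 and 4 had 6 reads each. The log2 fold change was -8.59 ± 0.78 (SE; limma adjusted p = 3.96e-05). All 16 of the B cell markers, among them Cd79a and Pax5, were lower in WT_TAM too, with a sum of 110 to 283 CPM there against 15846 to 17393 CPM in WT_SP. Ms4a1 made 6.15% to 6.94% of that marker sum in WT_SP and 0.297% to 4.88% in WT_TAM, so it was lower relative to the other B cell markers as well, without overlap. The part of B cells in the Ms4a1 result was not tested.

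Ms4a4b stood at 318, 339 and 333 CPM in WT_SP and at 32.2, 25.3, 27.0 and 13.9 CPM in WT_TAM, lowest in replicate 4. The log2 fold change was -3.78 ± 0.27 (SE; limma adjusted p = 1.03e-05). All 16 of the T and NK cell markers, such as Cd3e and Nkg7, were lower in WT_TAM, with a sum of 205 to 359 CPM against 2338 to 2518 CPM in WT_SP. Relative to that sum, Ms4a4b made 13.5% to 13.6% in WT_SP and 6.81% to 8.96% in WT_TAM. The part of T and NK cells in the Ms4a4b result was not tested.

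**Figure D2:**
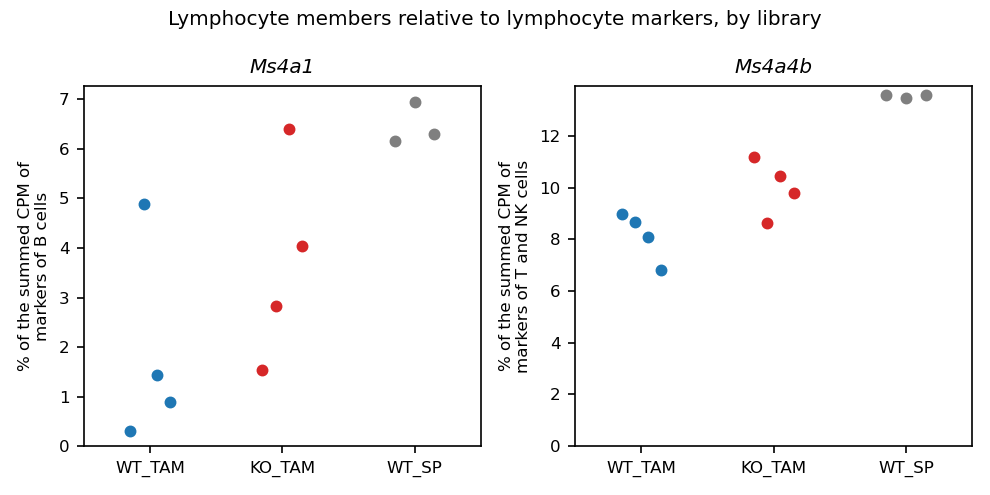
Ms4a1 as a percentage of the summed CPM of 16 B cell markers (left) and Ms4a4b as a percentage of the summed CPM of 16 T and NK cell markers (right), 1 point per library. The WT_SP points lie together, at 6.15% to 6.94% and 13.5% to 13.6%, and the tumor libraries spread more widely.

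The paralogs of these genes moved less. Ms4a4c stood at 156, 157 and 181 CPM in WT_SP and at 59.0, 63.8, 78.2 and 29.7 CPM in WT_TAM (log2 fold change -1.58 ± 0.31 SE, limma adjusted p = 0.00309). Ms4a6b stood at 237, 240 and 231 CPM in WT_SP and at 149, 137, 149 and 146 CPM in WT_TAM (-0.70 ± 0.15 SE, limma adjusted p = 0.00444). Ms4a6b was the member with the smallest spread relative to its mean in both groups, and its difference was the smallest of the 8. Of the 2 pairs whose promoters are shown, Ms4a4b and Ms4a4c were both lower in the tumor, whereas Ms4a6b was lower and Ms4a6c higher. The T and NK cell sum (205 to 359 CPM in WT_TAM, 2338 to 2518 CPM in WT_SP) and the B cell sum (110 to 283 and 15846 to 17393 CPM) moved with Ms4a4c and Ms4a6b too, and their part in these results was not tested.

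**Figure D3:**
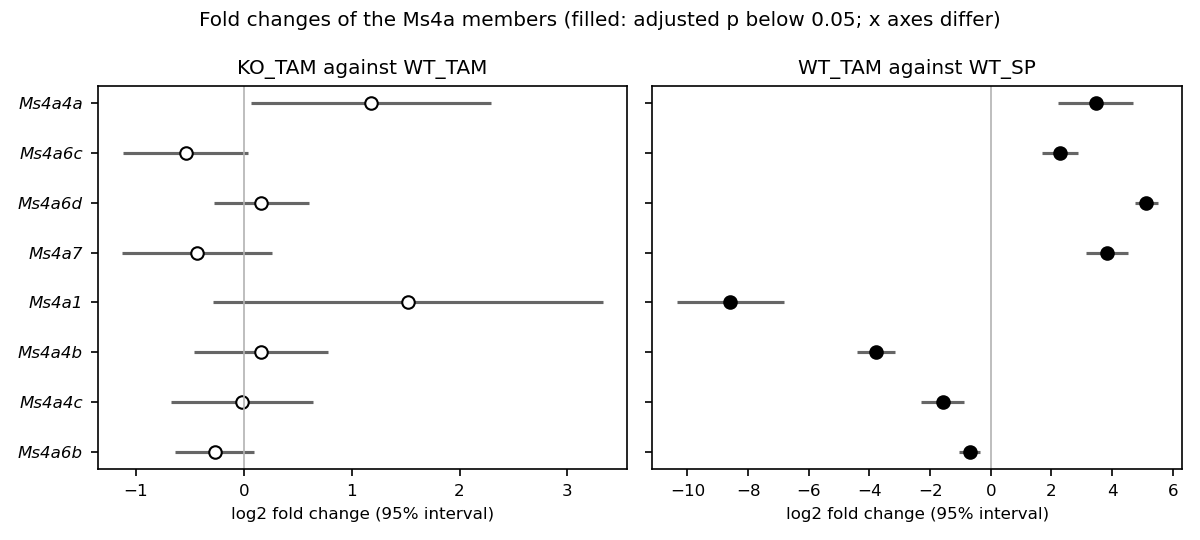
Log2 fold changes from limma with 95% intervals for each Ms4a member, KO_TAM against WT_TAM on the left and WT_TAM against WT_SP on the right; filled points have an adjusted p below 0.05 and the x axes differ. No member is filled on the left; on the right 4 members are higher and 4 lower.

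Of the genes known to work with Ms4a products, 10 of 19 tested were higher in WT_TAM and 8 were lower. Over all genes tested, 23.1% were called higher and 23.6% lower at the same threshold. The macrophage, B cell and T and NK cell marker sums given above moved between the same groups, and their part in the results of these genes and of the Ms4a relatives was not tested. Trem2, the lipid receptor of macrophages, stood at 215 to 645 CPM against 0.513 to 1.70 CPM in WT_SP (log2 fold change 7.77 ± 0.41 SE, limma adjusted p = 1.88e-06). Its signaling adaptor Tyrobp (1.89 ± 0.25 SE, adjusted p = 0.000358) and the Fc receptor chain Fcer1g (2.34 ± 0.21 SE, adjusted p = 3.95e-05) were also higher. Card9 (3.20) and Nlrp3 (3.99), which act in innate signaling, Orai1 (1.82), a calcium channel subunit, the tetraspanins Cd9 (2.97) and Cd63 (4.62), and Grn (2.44), the gene of progranulin, completed the higher group with Clec7a. The lower ones, beside Vsig4, included the mast cell genes Kit (-1.68) and Fcer1a (-1.51), the kinase gene Syk (-1.18), Stim1 (-0.89), Tnfrsf18 (-0.75) and Cd40 (-0.52). Cd81 did not pass (0.16, adjusted p = 0.522).

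Among 14 other Ms4a genes and relatives listed, 12 were in this table and 6 could be tested. Ms4a8a (2.96 ± 0.24 SE, limma adjusted p = 1.80e-05) and Ms4a14 (3.26 ± 0.50 SE, limma adjusted p = 0.000801) were higher in WT_TAM, and none was called lower. Ms4a8a stood at 26.3, 27.5, 17.1 and 22.3 CPM in WT_TAM and at 2.11, 2.78 and 2.71 CPM in WT_SP. Ms4a2, the beta chain of the IgE receptor, had a log2 fold change of -0.85 with an adjusted p of 0.107, and the distant relatives Tmem176a and Tmem176b had -0.05 and 0.14.

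Compared per kilobase of transcript, the order of the members turned over between the sites. In WT_SP the order of mean CPM per kilobase was Ms4a1 (418 ± 28.7 SD, n = 3), Ms4a4b (401), Ms4a4c (160), Ms4a6b (139), Ms4a6c (34.1), Ms4a7 (23.5), Ms4a4a (19.5) and Ms4a6d (12.3). Neighbours overlapped for Ms4a1 with Ms4a4b and for Ms4a7 with Ms4a4a only. In WT_TAM of the same table it was Ms4a6d (444 ± 53.4 SD, n = 4), Ms4a7 (364), Ms4a4a (256), Ms4a6c (175), Ms4a6b (85.7), Ms4a4c (55.9), Ms4a4b (29.9) and Ms4a1 (1.73). There neighbours among the first 4 overlapped, as did Ms4a4c with Ms4a4b. Lengths were those implied by the authors' values, and for Ms4a4a, which has none, the 836 bases of its GENCODE transcript. With the median GENCODE transcript length for every member, Ms4a6d was still first in WT_TAM (921) but moved to the fifth place in WT_SP (25.5), and Ms4a4b (419) passed Ms4a1 (351) there.

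The 8 members together made 1333 to 1620 CPM in WT_TAM and 1764 to 1922 CPM in WT_SP. Ms4a1 alone made 55.3% to 57.6% of this sum in WT_SP and 0.0341% to 0.884% in WT_TAM. Ms4a6d made 36.1% to 42.7% in WT_TAM and 0.790% to 0.921% in WT_SP.

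**Figure D4:**
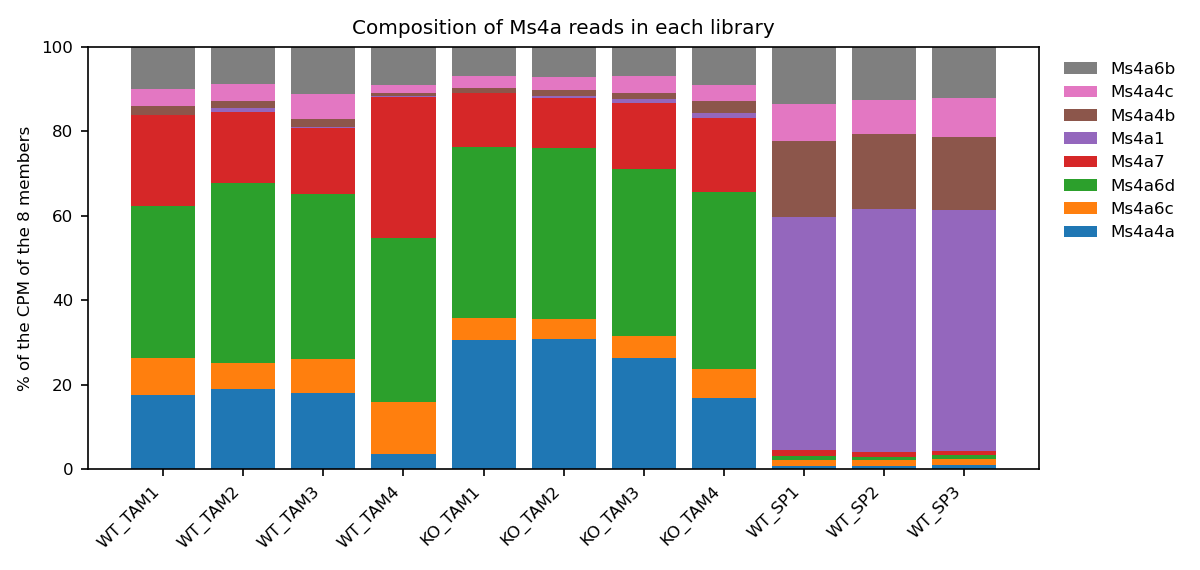
Share of each Ms4a member in the summed CPM of the 8 members, 1 bar per library. Ms4a1 and Ms4a4b fill most of the WT_SP bars; Ms4a6d is the largest segment of every tumor library, and the Ms4a4a segment is 3.49% in WT_TAM replicate 4.

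Between genotypes, no member changed at the threshold. Means of 4 members were higher in KO_TAM and of 4 lower, and the groups overlapped for all 8. With limma, 0 of 8 members and 0 of 12874 genes tested (0%) had an adjusted p below 0.05. At an unadjusted p below 0.05 there were 1 of 8 members, Ms4a4a, and 2367 genes (18.4%); limma voom also called 0 members. The groups did not overlap for 15.1% of the genes tested (6.39% higher and 8.73% lower in KO_TAM). The members' median log2 fold change was 0.07, against 0.01 over all genes tested. The intervals below show what sizes of difference these 4 and 4 libraries leave possible.

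Ms4a4a stood at 227, 256, 213 and 53.5 CPM in WT_TAM replicates 1 to 4 and at 472, 427, 487 and 180 CPM in KO_TAM. In each group replicate 4 was the lowest library by far, and KO_TAM replicate 4 fell below 3 WT_TAM libraries. The log2 fold change of Ms4a4a was 1.18 ± 0.50 (SE; 95% interval 0.07 to 2.29; limma adjusted p = 0.256), a 2.09-fold higher mean. It was 0.65 without WT_TAM replicate 4, 0.58 without both that library and KO_TAM replicate 2, and 1.52 without KO_TAM replicate 4. Per kilobase Ms4a4a was first in KO_TAM (468 ± 172 SD, n = 4), overlapping with Ms4a6d (447 ± 90.8 SD), and behind Ms4a6d and Ms4a7 in WT_TAM (224 ± 109 SD). The length choice decides that order: with median GENCODE lengths Ms4a6d was first in KO_TAM (928) and Ms4a4a second (468).

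Ms4a6c stood at 112, 84.8, 92.7 and 190 CPM in WT_TAM and at 82.9, 64.0, 96.0 and 73.2 CPM in KO_TAM. Ms4a7 stood at 276, 228, 183 and 513 CPM in WT_TAM and at 196, 164, 290 and 188 CPM in KO_TAM. Both were highest in WT_TAM replicate 4 and, within KO_TAM, in replicate 3. Their log2 fold changes were -0.54 ± 0.26 (SE; 95% interval -1.12 to 0.04; limma adjusted p = 0.299) and -0.44 ± 0.31 (SE; -1.13 to 0.26; limma adjusted p = 0.453). The value was -0.68 for Ms4a6c without WT_TAM replicate 2 and -0.63 for Ms4a7 without WT_TAM replicate 3. Without WT_TAM replicate 4 the value was -0.29 for Ms4a6c and -0.14 for Ms4a7. The macrophage identity sum was also highest in that library, at 29151 CPM against 14584 to 18923 CPM in the other WT_TAM libraries and 11205 to 14485 CPM in KO_TAM, and its part in these values was not tested. The same library was the highest for Trem2, at 610 CPM against 115 to 232 CPM in the other 7, and for Tyrobp, at 2429 CPM against 1154 to 1519 CPM.

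Ms4a6d stood at 464, 578, 462 and 595 CPM in WT_TAM and at 626, 562, 736 and 448 CPM in KO_TAM (log2 fold change 0.16 ± 0.20 SE, 95% interval -0.28 to 0.60, limma adjusted p = 0.661). Its share of the family sum was narrow in KO_TAM, at 39.7% to 41.9%. Ms4a6b stood at 129, 119, 131 and 138 CPM in WT_TAM and at 106, 99.9, 129 and 96.0 CPM in KO_TAM (-0.27 ± 0.16 SE, 95% interval -0.63 to 0.10, limma adjusted p = 0.388). For Ms4a6b only KO_TAM replicate 3 reached into the WT_TAM range.

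Ms4a1 stood at 0.440, 12.0, 1.93 and 0.930 CPM in WT_TAM and at 1.75, 5.79, 14.5 and 12.5 CPM in KO_TAM. It was near the floor in 2 WT_TAM libraries, and its interval was the widest of the family (log2 fold change 1.52 ± 0.82 SE, 95% interval -0.29 to 3.33, limma adjusted p = 0.330). The B cell marker sum was 104 to 245 CPM in WT_TAM and 114 to 310 CPM in KO_TAM, and its part in the Ms4a1 values was not tested. Ms4a4b (0.16 ± 0.28 SE, adjusted p = 0.767) and Ms4a4c (-0.02 ± 0.30 SE, adjusted p = 0.982) had limma fold changes near 0, with Ms4a4b at 13.2 to 27.9 CPM in WT_TAM and 16.6 to 30.7 CPM in KO_TAM, and Ms4a4c at 28.1 to 69.0 and 40.6 to 72.1 CPM. Sums of other marker lists moved between these groups. Fibroblast markers summed to 571 to 1283 CPM in WT_TAM and 50.02 to 366 CPM in KO_TAM, and neutrophil markers to 137 to 336 and 520 to 1475 CPM. In the neutrophil list, 5 of 12 genes passed the filter on low reads. Mmp9 averaged 88.8 CPM in WT_TAM and 294 CPM in KO_TAM, and Retnlg 73.9 and 293 CPM. Near the floor were Ly6g (0.018 and 0.038 CPM), S100a9 (0.689 and 1.56 CPM) and Cxcr2 (0.684 and 0.904 CPM). Markers of eosinophils, basophils and mast cells summed to 27.3 to 182 CPM in WT_TAM and 247 to 944 CPM in KO_TAM. Of the 7 of these that could be tested, 4 had a higher mean in KO_TAM and 3 a lower one. The part of these sums in the members' values was not tested.

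**Figure D5:**
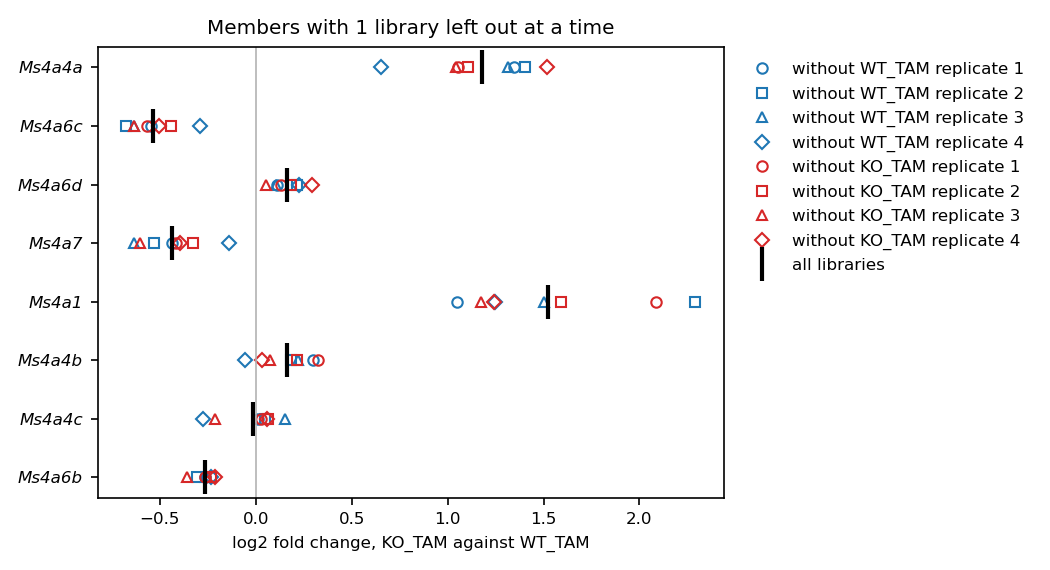
Log2 fold change of each Ms4a member, KO_TAM against WT_TAM, with all libraries (black bar) and with 1 library left out at a time (blue, a WT_TAM library; red, a KO_TAM library). Leaving out WT_TAM replicate 4 moves Ms4a4a to 0.65, Ms4a6c to -0.29 and Ms4a7 to -0.14, all nearer to 0. Other omissions move them away from 0. Ms4a4a reaches 1.52 without KO_TAM replicate 4, Ms4a6c -0.68 without WT_TAM replicate 2 and Ms4a7 -0.63 without WT_TAM replicate 3.

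Of the other Ms4a genes and relatives, 4 could be tested between genotypes and none was called. Ms4a8a stood at 22.8, 23.8, 15.1 and 21.1 CPM in WT_TAM and at 55.3, 36.4, 49.3 and 26.1 CPM in KO_TAM. Its groups did not overlap, but the limma log2 fold change of 0.96 ± 0.26 (SE; 95% interval 0.38 to 1.54) had an adjusted p of 0.136. Of the genes that work with Ms4a products, 17 could be tested and none was called. Clec7a had a log2 fold change of 0.66 (limma adjusted p = 0.195), Trem2 of -0.75 (adjusted p = 0.284), Tyrobp of -0.18 (adjusted p = 0.699) and Fcer1g of -0.16 (adjusted p = 0.685); Vsig4, with at most 11 reads in a tumor library, was not tested.

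The genes whose log2 values followed each member most closely over the 8 tumor libraries were named by Pearson's r, as a description. For Ms4a6d these were the chemokine gene Ccl7 (0.98), Cd209b (0.93) and 4632404H12Rik (0.90). For Ms4a7 they were Rps3a3 (0.97), the chemokine gene Ccl12 (0.96) and Med11 (0.96). Ms4a4a was followed by Mospd1, the interferon receptor gene Ifnar2 and Slc31a2 (each 0.98), and Ms4a4b by Ercc4 (0.99), Fancb (0.98) and Cd5l (0.97). For Ms4a6c these were Hist1h3i (0.99), Pfdn2 and Prkrir (each 0.98), for Ms4a6b Sh2d5 (0.98), Vav2 (0.96) and Fkbp14 (0.96), and for Ms4a4c Rps6kb1 (0.96), Impad1 (0.95) and Gm6377 (0.95). The values share their libraries and size factors, and each set was picked as the highest of all genes tested. Ms4a1, with a median under 10 CPM in these libraries, was left out. The genes named beside the members had to pass only the filter on low reads. Cd5l averaged 1.57 CPM in WT_TAM and 1.93 CPM in KO_TAM.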

How the data were processed

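The submitters' processing notes name mm10 as build and list DESeq2, HTSeq, SAMtools, HISAT, HISAT2 and TopHat2. How each was used, and with which version, annotation and strand setting, no source used here gives. The authors deposited 2 tables named as read counts whose values are not counts, so they were treated as a score of unknown scale. A deposited value was found to equal whole reads over gene length, library total and size factor, times the factor of 1 library, cycling through the libraries from row to row. This cycling alone moved the members' ratios of deposited means against those of CPM by 0.822-fold (Ms4a7) to 1.19-fold (Ms4a1) between tumor and spleen. Genes with no length had been divided by -1, Ms4a4a among them.

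Whole reads were recovered after several versions of the procedure, whose settings (lengths in steps of 0.5 base, rounding tolerances of 6e-10 and 2e-09 of a value) were settled on the tables after they had been looked at. Reads made up 99.9% to 100.0% of each library's implied total. In the table of both genotypes 98 values in 35 genes were not whole; none is a member. Of these, 49 were replaced from the other table and 49 by the amount that made them whole, except that Fdps was left out after its values were seen.

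Log2(CPM + 0.5) was the input to limma 3.58.1, run in R 4.3.3 (mean-variance trend, robust empirical Bayes), each comparison in its own table, two-sided, with Benjamini-Hochberg adjustment over all genes tested and a threshold of 0.05. Fold changes on this scale understate those of low genes. Genes entered with at least 15 reads in all and, in a number of libraries equal to the smaller group's size, a CPM that equals 10 reads in a library of median size. The script was tested on simulated data. Members, lists and these settings were chosen with earlier results of these data known. Named genes are the members, called relatives and partners with 5 partners fixed by name, and the 3 most correlated genes per member; a few other listed genes that did not pass were named after their values were seen. The shared stretches, promoter alignments, family shares and ratios to marker sums were added after the tables were examined and carry no test. A planned comparison of proteins was not run, and 1 listed partner gene is not reported here by name. Alternatives were other pseudocounts, filters, scalings, limma voom, a weight per library, the cells as deposited, a replicate block and leaving out libraries.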

Additional observations from a re-analysis of the deposited data

Results flagged for a closer look

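Of 24 groups of 4 libraries tested for a library far from the rest (8 members in 3 groups, with WT_TAM counted in both tables), 3 had one, where chance gives about 1 in 20. Ms4a1 in WT_TAM replicate 2 stood at 12.0 CPM in the table of both genotypes and at 13.8 CPM in the table with spleen, which is the same library and reads; the other 3 WT_TAM libraries had at most 1.93 and 2.19 CPM. Ms4a4c in KO_TAM replicate 3 stood at 72.1 CPM, against 40.6 to 43.9 CPM in the other 3.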

How the results depend on the processing

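Of the members' 120 values in alternatives of the tumor and spleen comparison, all kept direction and call, and all 8 members were called in each. Scaling to the library total alone shifted the median of all genes there from -0.07 to -0.52 on the log2 scale and the calls to 2135 higher and 5629 lower, against 3286 and 3364. Between genotypes no member was called in any alternative, and 134 of 144 values kept their direction. The exceptions lay near 0: leaving out 1 library gave -0.28 to 0.15 for Ms4a4c and -0.0565 to 0.32 for Ms4a4b; scaling to the library total gave 0.0536 for Ms4a4c, a weight per library -0.0598 for Ms4a4b, and leaving out WT_TAM replicate 4 and KO_TAM replicate 2 together -0.00364 for Ms4a4b. The count of all genes changed between genotypes, 0 in the reported fit, was 98 without a filter, 387 with a weight per library, 4 with the cells as deposited and 65 without those 2 libraries. The causes were not tested.

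Samples of the same replicate number did not deviate together (correlations -0.16 to 0.20 between genotypes and -0.09 to 0.10 between sites), and not every library correlated best with its own number. With a replicate block the calls were 0 between genotypes and 9114 between sites, with 0 and 8 members. Depth limits Ms4a1 most, which had 6 reads in 2 WT_TAM libraries.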

Other observations

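Ms4a3, a gene of granulocyte and monocyte precursors, was listed at 0 reads in all 4 WT_TAM libraries, while WT_SP replicates 1 to 3 stood at 6.20, 0.695 and 4.40 CPM; it did not pass the filter on low reads and was not tested. Neutrophil marker sums in the same table were 1136 to 3027 CPM in WT_SP and 145 to 388 CPM in WT_TAM, and their part in the Ms4a3 values was not tested.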
